A study of Mus musculus with 4 samples.

Results

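The transcripts described here are those of 6 fibroblast growth factor ligands (Fgf1, Fgf4, Fgf7, Fgf8, Fgf10 and Fgf15) and of the 4 signalling receptors (Fgfr1, Fgfr2, Fgfr3 and Fgfr4) in mouse embryonic stem cells (mESCs). They are 10 of the 37310 genes listed, found by their symbols, and the group was put together because Fgf1 and Fgf7 were much higher in cells labelled Bmal1-/- than in wild-type cells of the same data. For this reason the differences of the 10 genes are given as a description, with a standard error and no p-value. The samples were 2 wild-type and 2 Bmal1-/- cultures of the JM8 line, which comes from the C57BL6/N strain. All 4 cultures grew without feeder cells on gelatin, in serum-free 2i + LIF medium with 1 µM PD0325901, an inhibitor of Mek, and 3 µM CHIR99021, an inhibitor of Gsk3. The Bmal1-/- cells are 1 clone made with CRISPR/Cas9, with mutations of both alleles of the circadian transcription factor gene Bmal1, and the wild-type cells are its parental line. A difference between the lines other than Bmal1 therefore cannot be told apart from the genotype.

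Fgf ligands are secreted proteins that bind receptor tyrosine kinases together with heparan sulphate chains on the cell surface, and the receptors then act through the adaptor Frs2 on the GTPase Ras and the kinases Raf, Mek and Erk. In mESCs, Fgf4 is the ligand known to drive Erk signalling and the exit from naive pluripotency, and Fgfr1 and Fgfr2 are its known receptors in the early embryo. The Mek inhibitor in 2i medium blocks this cascade below the receptors, at Mek. The activity of these kinases was not measured here.

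Libraries held between 21504265 and 23329034 reads on genes. The values below are normalized read counts, which are read counts scaled to make the libraries comparable (trimmed mean of M values, TMM), and 3 reads corresponded to 2.82 to 3.19. Differences are log2 fold changes of value + 1, fitted with limma for the 14510 genes whose average over the libraries reached 10, and the Benjamini-Hochberg adjusted p-values are over those genes. The targeted gene, listed as Arntl, had values of 678 and 733 in wild-type and of 556 and 590 in Bmal1-/- libraries, so its mRNA was present in all 4 and does not identify the genotype. Libraries are therefore named by their labels. The study itself sequenced the mutations of both alleles and found no detectable Bmal1 protein in the Bmal1-/- cells by Western blot. Its RT-qPCR did not detect Bmal1 mRNA in them, which differs from the values here, and the reason was not tested. Between replicates, the chi-square of the counts divided by its degrees of freedom was 3.01 in wild-type and 1.92 in Bmal1-/- libraries, where counting error alone gives about 1, and between the first libraries of the labels it was 28.8.

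Of the 10 members, 8 reached the filter, and Fgf8 and Fgf15 did not. The wild-type and Bmal1-/- libraries did not overlap in 8 of these 8, and neither did they in 76.0% of all genes tested. At an adjusted p-value under 0.05, 8 of the 8 were called, 5 of them higher and 3 lower in Bmal1-/-, where 52.6% of all genes tested were called, 24.0% higher and 28.6% lower. With a fold change over 2 in addition, 2 members were higher and 0 lower, where the same held for 7.21% of all genes tested, 5.75% higher and 1.45% lower. Of the 8, 5 (Fgf4, Fgf10, Fgfr1, Fgfr2 and Fgfr4) lost the call at an adjusted p-value under 0.05 in at least 1 alternative way of processing. Fgf7 reached the filter only through the libraries in which it was high. The members were chosen from this contrast, and nothing is read from these counts.

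**Figure D1:**
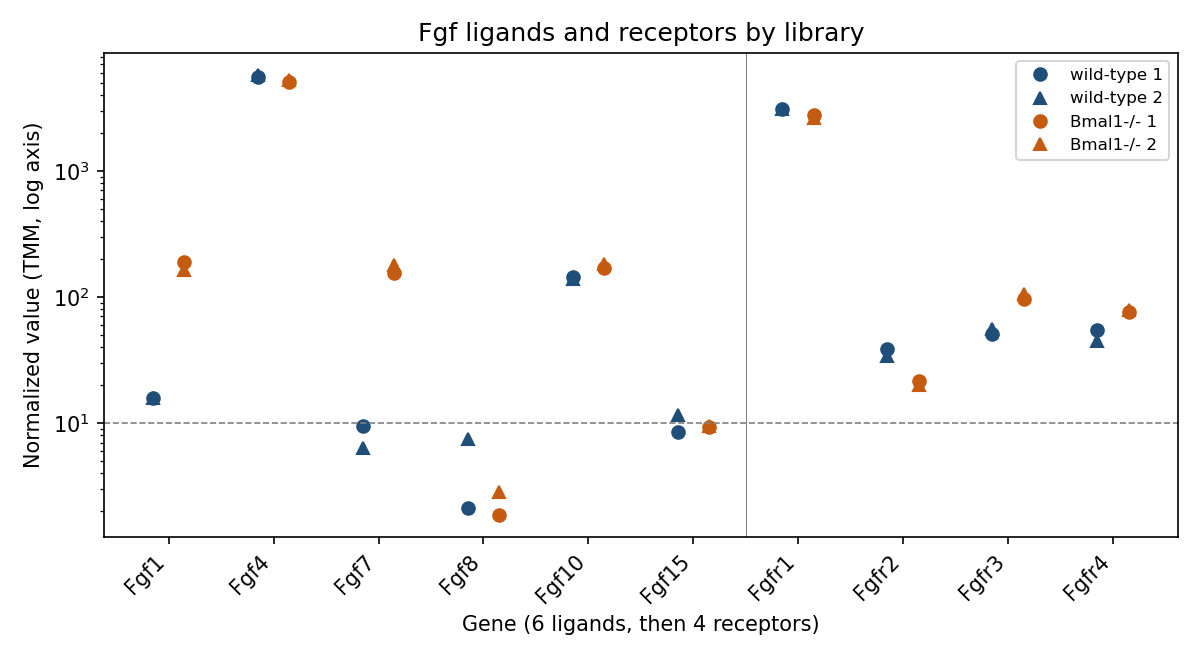
Normalized value of each of the 10 members in the 4 libraries (log axis; 1 point per library, wild-type in blue and Bmal1-/- in orange; the dashed line is the filter at a mean of 10). Fgf1 and Fgf7 lie between 6.37 and 15.9 in wild-type and between 156 and 189.8 in Bmal1-/- libraries, while the points of Fgf4 and Fgfr1 lie close together in all 4.

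Fgf7, also called keratinocyte growth factor, is a ligand that mesenchymal cells make and epithelial cells respond to, through a splice form of Fgfr2. It was close to the detection floor in wild-type mESCs, with normalized values of 9.48 and 6.37 from 9 and 6 reads. The libraries labelled Bmal1-/- had 156 and 179, from 166 and 188 reads. Both libraries of this label were thus above both wild-type libraries, and the smallest value of the higher group was more than 10 times the largest of the lower. The means were 7.93 ± 2.20 and 168 ± 16.5 (SD, n = 2), a 21.1-fold difference of the values, and the log2 fold change of value + 1 was 4.26 (standard error 0.24). Because the wild-type value rests on few reads, the size of this difference moved with the wild-type library used, from 4.004 without the second to 4.51 without the first.

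Fgf1, or acidic Fgf, is a ligand that can activate all of the receptors and that leaves cells without a classical signal peptide. Its normalized values were 15.8 and 15.9 in wild-type libraries, from 15 reads in each. They were 189.8 and 163 in the libraries labelled Bmal1-/-, from 202 and 171 reads. The groups did not overlap here either, and the wild-type libraries were closer to each other than the Bmal1-/- libraries. The means were 15.9 ± 0.09 and 176 ± 18.9 (SD, n = 2), an 11.1-fold difference, and the log2 fold change was 3.39 (standard error 0.20). The 2 genes are unlinked: in mm9, Fgf7 (ENSMUSG00000027208) lies on chromosome 2 from 125860394 to 125916921 on the forward strand, and Fgf1 (ENSMUSG00000036585) on chromosome 18 from 38998327 to 39089058 on the reverse strand. In bulk RNA, a few cells with much of a transcript and many cells with little of it cannot be told apart.

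The genes beside Fgf7 and Fgf1 were examined to see how far along the chromosome the difference extended. Of 6 other tested genes that start within 500 kb of the start of Fgf7, 4 passed an adjusted p-value of 0.05 and 0 differed by more than 2-fold, with log2 fold changes from −0.69 to 0.33. Over all genes tested, 52.6% passed, and 7.21% passed and were over 2-fold. Counts from so few neighbours, here and around Fgf1, cannot be told apart from these shares. The nearest tested protein-coding gene on the lower side is Galk2, a sugar kinase gene 50.4 kb away, which had 526 and 549 in wild-type and 472 and 497 in Bmal1-/- libraries (adjusted p = 0.091). On the higher side Dtwd1, 61.0 kb away, was lower in the libraries labelled Bmal1-/-, with 122 and 142 against 206 and 197 (log2 fold change −0.61, standard error 0.12, adjusted p = 2.9e-04). Neither neighbour of Fgf7 was thus higher with it. Around Fgf1, 2 tested genes start within 500 kb, and both passed, with 0 over 2-fold and log2 fold changes of −0.83 and 0.42. The first is Spry4, a feedback inhibitor of receptor tyrosine kinases 237 kb from Fgf1, and the other is Arhgap26, whose body overlaps Fgf1 on the opposite strand with 0 bases of shared exon. Arhgap26 had 95.9 and 82.9 in wild-type and 112 and 129 in Bmal1-/- libraries (adjusted p = 0.023). The next tested gene on the other side of Fgf1, Nr3c1 for the glucocorticoid receptor, lies 481 kb away and was higher in the libraries labelled Bmal1-/-, at 255 and 235 against 204 and 170.0 (adjusted p = 0.0065).

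One transcript over Fgf7 itself was singled out after its values had been seen. 4930525F21Rik (ENSMUSG00000027209) is annotated on the reverse strand of chromosome 2 from 125809219 to 125977740, so that its body spans all of Fgf7 and shares 0 bases of exon with it. It had 0 and 0 reads in wild-type and 19 and 15 reads in Bmal1-/- libraries, with normalized values of 17.8 and 14.3. The mean of the libraries labelled Bmal1-/- was 5.07 times the mean value of a floor of 3 reads in the wild-type libraries. This is a ratio of means that rests on these few reads, and not a lower bound. The mean of this transcript over the 4 libraries, 8.04, is under the filter, so that it was not tested. The libraries came from a stranded kit, but whether the counting used the strand is not given in the sources used here, and reads of the 2 strands over this region may not be separated in full.

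The tested genes whose pattern over the 4 libraries was most like that of Fgf7 and Fgf1 were found from the Euclidean distance between log2 profiles, each centred on its mean. For Fgf1 they were Chit1, which encodes a chitinase, at a distance of 0.11, BC080695 at 0.11 and Gm10696 at 0.13, where the median over all tested genes was 3.43. Chit1 had 100.1 and 97.7 in wild-type and 1078 and 1023 in Bmal1-/- libraries, with no overlap between the groups. For Fgf7 the closest were the predicted genes Gm20452 at 0.33, Gm11237 at 0.34 and Gm16368 at 0.37, against a median of 4.31. Gm20452 had 2.11 and 1.06 in wild-type and 48.8 and 41.0 in Bmal1-/- libraries, so that its wild-type values were under the floor of 3 reads. Fgf1 was at rank 67 in the order of likeness to Fgf7, and Fgf7 at rank 175 for Fgf1, with a distance of 0.99 between them. These distances describe 2 groups of 2 libraries and carry no test.

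The promoters of Fgf7, of its closest relative Fgf10 and of Fgfr2, the receptor gene whose epithelial splice form binds both, are shown because these genes share a signalling route and yet differ in their values. Each is the RefSeq sequence of GRCm38.p6 from 250 bases before to 50 bases after the annotated start, on the strand of the gene: chr2:126034408-126034707 on the forward strand for Fgf7, chr13:118714449-118714748 on the forward strand for Fgf10 and chr7:130266759-130267058 on the reverse strand for Fgfr2. Capitals mark CACGTG, the canonical E-box that the Bmal1 and Clock dimer binds.
Fgf7: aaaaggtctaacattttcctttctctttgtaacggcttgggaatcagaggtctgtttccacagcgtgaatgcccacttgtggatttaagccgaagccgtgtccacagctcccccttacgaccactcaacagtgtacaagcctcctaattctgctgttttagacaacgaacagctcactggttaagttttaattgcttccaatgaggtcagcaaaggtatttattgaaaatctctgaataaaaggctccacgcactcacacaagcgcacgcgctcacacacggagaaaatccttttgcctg
Fgf10: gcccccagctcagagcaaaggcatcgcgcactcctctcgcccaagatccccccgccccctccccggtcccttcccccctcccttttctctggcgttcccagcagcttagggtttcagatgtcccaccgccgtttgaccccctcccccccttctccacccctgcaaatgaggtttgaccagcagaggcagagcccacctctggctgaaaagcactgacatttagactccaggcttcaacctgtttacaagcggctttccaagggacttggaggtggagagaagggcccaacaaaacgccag
Fgfr2: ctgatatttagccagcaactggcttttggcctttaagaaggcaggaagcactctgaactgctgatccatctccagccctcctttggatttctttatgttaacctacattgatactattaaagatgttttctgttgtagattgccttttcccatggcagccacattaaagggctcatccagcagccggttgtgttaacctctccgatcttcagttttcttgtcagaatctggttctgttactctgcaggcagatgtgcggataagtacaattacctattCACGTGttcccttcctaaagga
Both strands were searched for CACGTG, which reads the same on each, and for its variant CACGTT, which on the opposite strand is read as AACGTG, and no 6 letters can be counted as both motifs. Promoters were found by symbol for 6 of the 10 members, namely Fgf4, Fgf7, Fgf10, Fgfr2, Fgfr3 and Fgfr4, and made 7 sequences because Fgfr3 has 2. Fgf1, Fgf8, Fgf15 and Fgfr1 had no entry. CACGTG was present in 1 of the 7, that of Fgfr2, starting at base 29 after the start, and CACGTT in 0 of the 7. Over all 32851 promoters of this length, CACGTG was present in 2349 (7.15%) and CACGTT in 1539 (4.68%). The Fgf7 promoter shown, whose GC content is 45.7%, held neither, and nor did that of Fgf10, with 60.7%. These matches describe letters in a window of 300 bases and say nothing of binding.

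Fgf4, the ligand mESCs are known to make for themselves, was the most abundant of the members per length of transcript, as given below. It had 5528 and 5743 in wild-type and 5082 and 5261 in Bmal1-/- libraries. The lowest wild-type library was above the highest Bmal1-/- library, but by a small margin, and the mean of the latter was 91.8% of the wild-type mean (5172 ± 126 against 5635 ± 152, SD, n = 2). The log2 fold change was −0.12 (standard error 0.04), and it was −0.06 with equal library totals or with quantile normalization in place of TMM. Fgf4 (ENSMUSG00000050917) stands on chromosome 7 in a row with Fgf3 and Fgf15, 17.0 kb and 31.3 kb from it. Fgf3, a ligand of early development, had 173 and 142 in wild-type and 156 and 172 in Bmal1-/- libraries, so that its groups overlapped (log2 fold change 0.06, adjusted p = 0.71).

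Fgf15, the endocrine ligand of the intestine that lowers bile acid synthesis, was near the floor. It had 8 and 11 reads in wild-type and 10 and 10 reads in Bmal1-/- libraries, with normalized values of 8.43, 11.7, 9.39 and 9.54. The Bmal1-/- values fell between the wild-type values, and the exact Poisson 95% intervals of the reads, from 3.45 to 15.8 and from 5.49 to 19.7 in wild-type and from 4.80 to 18.4 in each Bmal1-/- library, overlapped throughout, so that a difference was not detectable at this depth. These intervals cover counting error only. Of its exonic length, 26.4% is shared with the antisense transcript Gm17685, which had at most 2 reads in a library. Fgf8, a ligand of gastrulation and of patterning centres in the embryo, had 2 and 7 reads in wild-type and 2 and 3 reads in Bmal1-/- libraries. Its values of 2.11, 7.44, 1.88 and 2.86 overlapped, and only the second wild-type library was above the floor of 3 reads.

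Fgf10, which mesenchyme makes during limb and lung budding, was present in all libraries at a moderate number of reads. It had 143 and 138 in wild-type and 170.0 and 182 in Bmal1-/- libraries. The groups did not overlap, and the means of 141 ± 3.66 and 176 ± 8.56 (SD, n = 2) stood 1.25-fold apart, with a log2 fold change of 0.32 (standard error 0.12). Under quantile normalization it was 0.20.

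Fgfr1, the main Fgf receptor of mESCs, was the most abundant receptor per length. It had 3112 and 3097 in wild-type and 2779 and 2636 in Bmal1-/- libraries. The latter were lower in both, at 87.2% of the wild-type mean (2707 ± 101 against 3104 ± 10.9, SD, n = 2), with a log2 fold change of −0.20 (standard error 0.05). With equal library totals it was −0.14. A second identifier with the symbol Fgfr1 (ENSMUSG00000091895), whose exons overlap those of the first, was listed at 0 in all 4 libraries.

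Fgfr2, the receptor of the primitive endoderm and of epithelia, had 39.0 and 34.0 in wild-type and 21.6 and 20.03 in Bmal1-/- libraries, from 37, 32, 23 and 21 reads. Both Bmal1-/- libraries were below both wild-type libraries. The means were 36.5 ± 3.53 and 20.8 ± 1.12 (SD, n = 2), and the log2 fold change was −0.78 (standard error 0.27), which became −1.06 under quantile normalization. The annotated gene is unusual in its extent. It covers 3.01 Mb of chromosome 7 because 1 of its 29 transcripts runs on to 140315033, where it shares 314 bases of exon with Ctbp2, whereas the other transcripts end by 137410322. Without that transcript the exonic length is 7421 and not 7796 bases. Counts per gene do not separate the epithelial from the mesenchymal splice form.

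Fgfr3, known for restraining the growth of cartilage, moved the other way, with 50.6 and 55.2 in wild-type and 95.8 and 106 in Bmal1-/- libraries. The groups were apart, and the means of 52.9 ± 3.30 and 101 ± 7.09 (SD, n = 2) stood 1.91-fold apart, and the log2 fold change was 0.92 (standard error 0.17). Fgfr4, the receptor of liver for Fgf15, had 54.8 and 44.6 in wild-type and 76.1 and 79.1 in Bmal1-/- libraries. It was also higher in both, 1.56-fold (77.6 ± 2.16 against 49.7 ± 7.19, SD, n = 2), with a log2 fold change of 0.64 (standard error 0.19) that was 0.41 under quantile normalization. The coreceptor Klb, which Fgf15 needs together with Fgfr4, had 42.1 and 27.6 in wild-type and 45.1 and 44.8 in Bmal1-/- libraries and did not pass the test (adjusted p = 0.19).

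To compare levels between genes, values were divided by the length of the union of annotated exons in kb. On this scale Fgf4 had a mean of 1860 in wild-type and 1707 in Bmal1-/- libraries, at percentile 94.7 and 94.8 of all genes tested. Fgfr1 followed with 385 and 336, at percentile 74.1 and 71.9. All other members had means below 31 per kb in wild-type libraries. Their descending order was Fgf10 (30.6), Fgfr4 (14.0), Fgfr3 (7.69), Fgf15 (5.56), Fgfr2 (4.68), Fgf8 (3.53), Fgf1 (3.41) and Fgf7 (2.44). The ranges of Fgf15, Fgfr2, Fgf8 and Fgf1 overlapped between neighbours, and the other neighbours in this order did not. Fgf7 had the lowest mean per length in wild-type libraries, but the range of Fgf8, from 1.56 to 5.51, contained that of Fgf7, from 1.96 to 2.92, so that the order of these 2 genes is not settled. In Bmal1-/- libraries only Fgf4 and Fgfr1 stood above Fgf7, and its mean was 51.6 per kb, before Fgf10 at 38.3 and Fgf1 at 38.0, whose ranges overlapped. Then came Fgfr4 (21.8), Fgfr3 (14.7), Fgf15 (5.23), Fgfr2 (2.67) and Fgf8 (1.76), with no overlap between neighbours. Fgf7 went from percentile 2.45 to 32.3 of all genes tested, and Fgf1 from 3.90 to 27.6. With the longest transcript as the length, Fgfr2 stood above Fgf15 in wild-type libraries, and in Bmal1-/- libraries Fgf1 stood above Fgf10 and Fgfr3 above Fgfr4, both pairs with overlapping ranges.

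**Figure D2:**
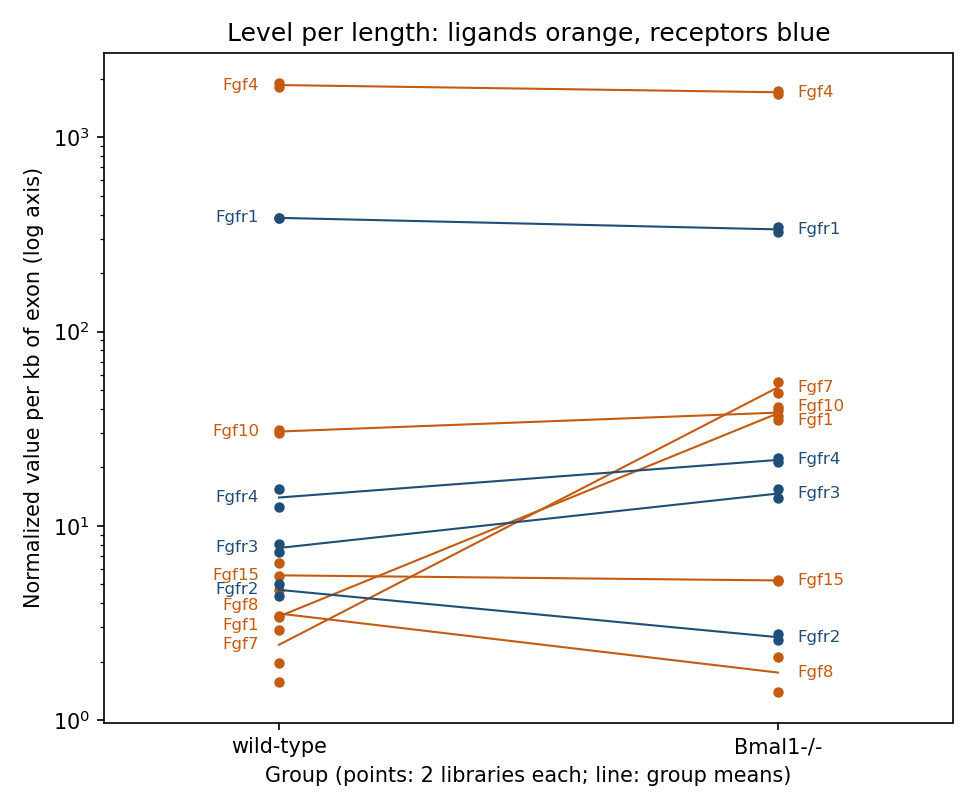
Normalized value per kb of exon (log axis) of the ligands (orange) and receptors (blue) in wild-type (left) and Bmal1-/- libraries (right); points are libraries and lines join the group means. Fgf4 and Fgfr1 are the highest in every library, and Fgf7 and Fgf1 move from the low end in wild-type, at means of 2.44 and 3.41, to the middle in Bmal1-/- libraries, at 51.6 and 38.0.

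The 6 ligands summed per length came to 1868 and 1943 in wild-type and to 1810 and 1874 in Bmal1-/- libraries, so that the sums overlapped. Fgf4 made up 97.7% and 97.6% of this sum in wild-type and 92.7% and 92.7% in Bmal1-/- libraries. The share of Fgf7 went from 0.16% and 0.10% to 2.65% and 2.95%, and that of Fgf1 from 0.18% and 0.18% to 2.26% and 1.87%. Even at their highest, Fgf1 and Fgf7 together were a small part of the transcripts of these 6 ligands beside Fgf4. Other secreted ligands, Fgf3 and Fgf17 among them, are not in this sum. The 4 receptors summed to 414 and 409 in wild-type and to 383 and 367 in Bmal1-/- libraries, which did not overlap. Fgfr1 made up 93.3% and 93.9% of this sum in wild-type and 90.0% and 89.0% in Bmal1-/- libraries. Fgfr3 went from 1.78% and 1.96% to 3.64% and 4.19%, Fgfr4 from 3.72% and 3.07% to 5.59% and 6.06%, and Fgfr2 from 1.21% and 1.07% to 0.72% and 0.70%. These are shares of transcripts, not of proteins.

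The other genes of the pathway were taken from 7 lists of 84 genes by role, of which 83 were in the table and 62 were tested. At an adjusted p-value under 0.05, 22 of these were higher in Bmal1-/- libraries, 10 were lower and 30 did not pass. This is 51.6% of the list genes, beside 52.6% of all genes tested, of which 24.0% were higher and 28.6% lower. The median log2 fold change was 0.11, beside −0.03 over all genes tested. With a fold change over 2 as well, 4 of the 62 were higher and 3 lower, beside 5.75% and 1.45% of all genes tested. Fgf21 and Hs6st3, both among the 22 and the 4, reached the filter only through the group in which they were high, and among the other 60 genes tested 20 were higher and 10 lower. All p-values of these lists are limma's with Benjamini-Hochberg adjustment.

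Among the 12 other secreted ligands, 3 were tested. Fgf21, a metabolic hormone of liver and fat, had 4.21 and 4.25 in wild-type, from 4 reads in each, and 21.6 and 15.3 in Bmal1-/- libraries. It reached the filter only through the latter, so its log2 fold change of 1.87 (standard error 0.44) is given with no p-value. Fgf17, a relative of Fgf8, was lower, with 51.7 and 61.0 against 73.7 and 80.7 (log2 fold change −0.45, standard error 0.18, adjusted p = 0.042), and this call was lost under 8 of 15 alternatives, among them without the first Bmal1-/- library (adjusted p = 0.25), the second (0.058) or the second wild-type library (0.14). Fgf3 was given above. Fgf2, or basic Fgf, had 0, 0, 0 and 3 reads and Fgf5, a marker of the primed state, 4 and 8 reads in wild-type and 2 and 3 in Bmal1-/- libraries, so neither was tested. Fgf16 was at 0, and 5 of the 12 had at most 3 reads in any library. Of the 4 intracellular homologous factors, which are not secreted, 2 were tested and 0 passed, and Fgf12 and Fgf14 were at 0.

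Of the 8 coreceptors and binding proteins, 7 were tested, 2 were higher, 2 were lower and 3 did not pass. The leucine-rich repeat transmembrane proteins of the Flrt family, which bind Fgf receptors, went in both directions. Flrt1 was higher in the libraries labelled Bmal1-/-, with 22.1 and 25.5 in wild-type and 87.4 and 67.7 in Bmal1-/- libraries (1.65 on the log2 scale, standard error 0.22, adjusted p = 3.6e-06). Flrt2 was higher too, with 451 and 501 against 267 and 242 (0.90, adjusted p = 5.5e-08), and Flrt3 was lower, with 52.6 and 57.2 against 96.9 and 106 (−0.88, adjusted p = 1.9e-04). Fgfbp1, which releases Fgf from the matrix, was the lowest of the list by log2 fold change, with 113 and 131 in wild-type and 40.4 and 40.1 in Bmal1-/- libraries (−1.57, standard error 0.17, adjusted p = 2.7e-07). Kl, the gene of Klotho, was at 0.

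Heparan sulphate proteins and enzymes decide which Fgf a cell surface holds. Of 12 core proteins 11 were tested, and 5 were higher, 3 lower and 3 did not pass. Sdc3, a syndecan, had 57.9 and 59.5 in wild-type and 113 and 113 in Bmal1-/- libraries (log2 fold change 0.93, adjusted p = 6.0e-05), the glypican Gpc6 had 103 and 85.0 against 147 and 150 (0.66, adjusted p = 5.7e-04), and perlecan, Hspg2, had 3194 and 2750 against 4507 and 4344 (0.58, adjusted p = 2.7e-08). The glypican Gpc3 went the other way, with 735 and 677 in wild-type and 319 and 340.4 in Bmal1-/- libraries (−1.09, standard error 0.08, adjusted p = 2.9e-10). The syndecans Sdc4 (−0.39, adjusted p = 1.5e-06) and Sdc1 (−0.27, adjusted p = 0.0012) were lower by less. Of 22 enzymes 15 were tested, and 5 were higher, 1 lower and 9 did not pass. The one lower enzyme was Sulf1, which trims 6-O-sulphate from finished chains, with 998 and 888 in wild-type and 361 and 381 in Bmal1-/- libraries (−1.34, standard error 0.07, adjusted p = 5.6e-12). Hs6st3, which adds 6-O-sulphate, had 6.32 and 5.31 against 16.9 and 35.3, with a log2 fold change of 1.91 (standard error 0.42) that was 1.40 without the second Bmal1-/- library. It too reached the filter only through the Bmal1-/- libraries and is given with no p-value. Glce, the epimerase of the chain, rose from 933 and 949 to 1330.2 and 1310.2 (0.49, adjusted p = 2.9e-07). Hs3st1, a 3-O-sulphotransferase, had 15.8 and 21.2 against 36.6 and 34.3 (0.92, standard error 0.28, adjusted p = 0.0095), a call lost under 5 of 15 alternatives, among them without the first (adjusted p = 0.077) or the second Bmal1-/- library (0.052).

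All 12 adaptors below the receptors were tested, and 5 were higher, 0 lower and 7 did not pass. Cbl, a ubiquitin ligase that sends activated receptors to degradation, had the largest difference of this list, with 1116 and 834 in wild-type and 2931 and 2958 in Bmal1-/- libraries (log2 fold change 1.61, standard error 0.08, adjusted p = 1.8e-12). Sos2, a Ras exchange factor, had 299 and 278 against 442 and 494 (0.69, adjusted p = 1.3e-06). Frs2, the docking adaptor of Fgf receptors, had 1050.3 and 1005 against 1188 and 1298 (0.27, adjusted p = 5.6e-04). Among the feedback inhibitors and targets of the Erk cascade 12 of 14 were tested, and 4 were higher, 3 lower and 5 did not pass. Dusp6, an Erk phosphatase induced by Fgf, had 109 and 85.0 in wild-type and 55.4 and 50.5 in Bmal1-/- libraries (−0.85, standard error 0.18, adjusted p = 5.0e-04). Spry4 had 92.7 and 63.7 against 50.7 and 36.2 (−0.83, standard error 0.22, adjusted p = 0.0033), but without the second Bmal1-/- library it was −0.59 (adjusted p = 0.073). Their relatives went the other way: Spry2 had 1541 and 1363 in wild-type and 1884 and 1923 in Bmal1-/- libraries (0.39, adjusted p = 7.1e-06), and the phosphatase Dusp4 had 32.7 and 31.9 against 64.8 and 50.5 (0.81, standard error 0.22, adjusted p = 0.0044), where leaving out the first Bmal1-/- library gave an adjusted p = 0.099. Spred1, an inhibitor of Raf activation, was higher (0.26, adjusted p = 0.0060), and the transcription factor gene Etv4 was lower (−0.20, adjusted p = 0.023). The genes of this list thus did not move in 1 direction, and the medium of all 4 cultures contained the Mek inhibitor.

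**Figure D3:**
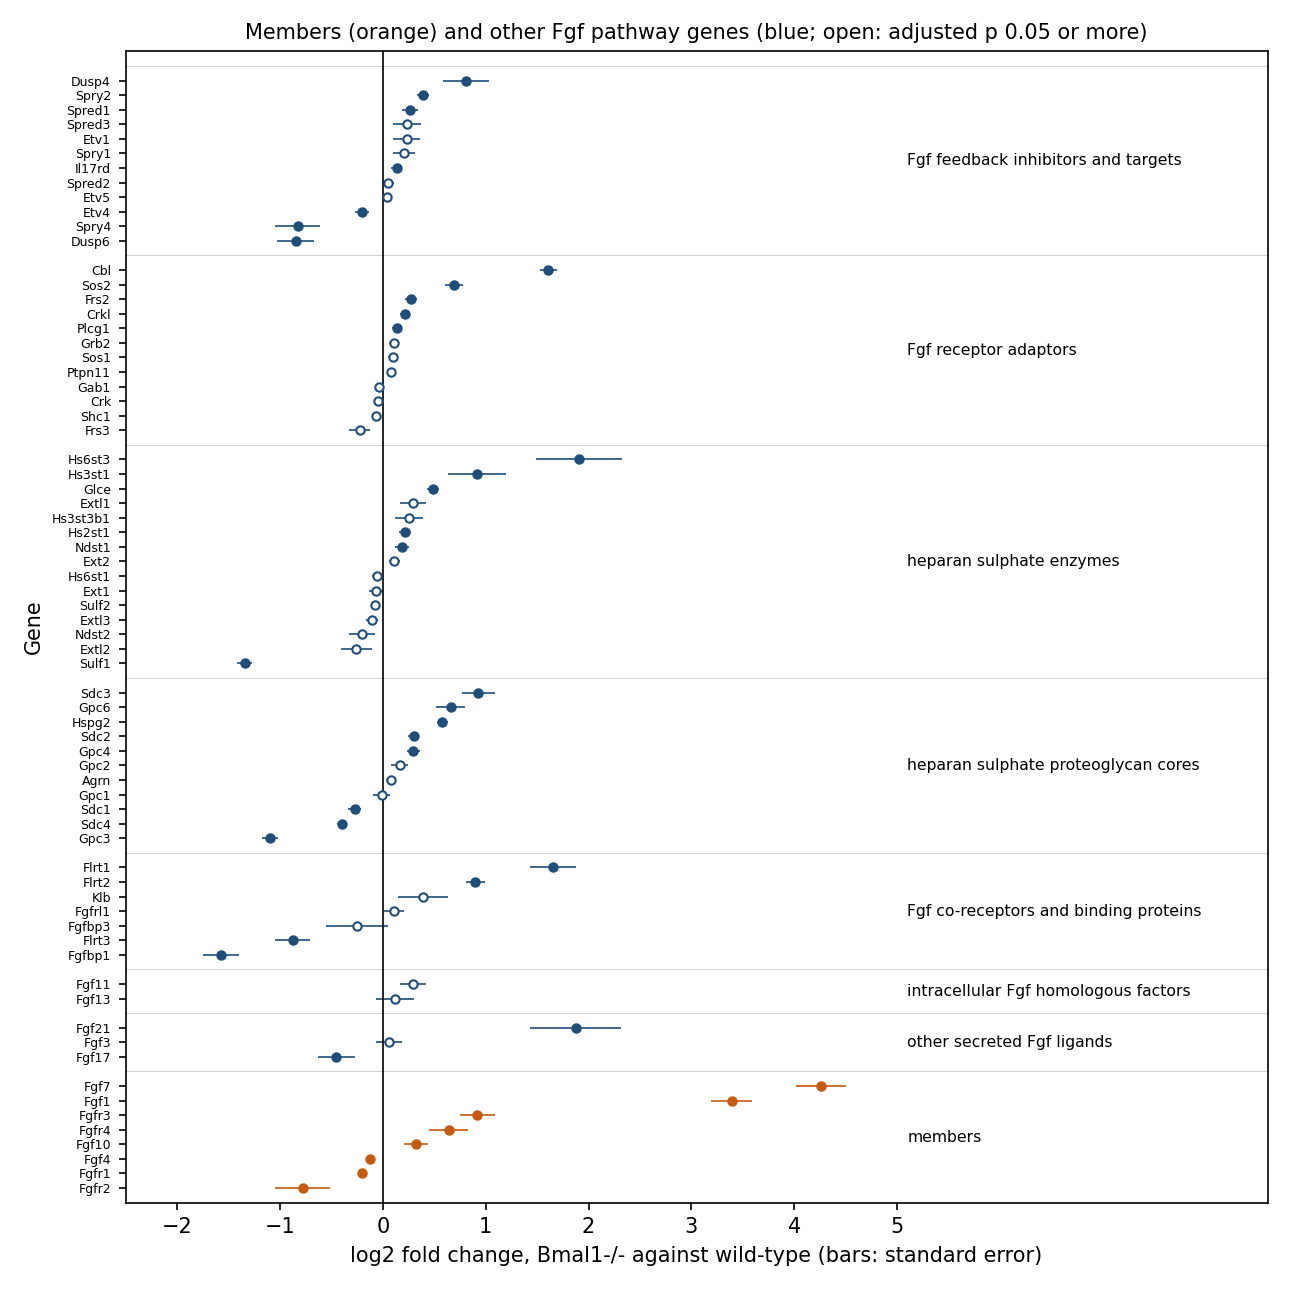
Log2 fold changes of Bmal1-/- against wild-type libraries for the 8 tested members (orange) and the 62 tested genes of the 7 pathway lists (blue; filled points passed an adjusted p-value of 0.05, open points did not; bars are standard errors). Fgf7 (4.26) and Fgf1 (3.39) lie beyond all the other genes drawn. Each list except the adaptors and the intracellular factors has genes that passed on both sides of 0. For the secreted ligands the higher side is Fgf21 alone, which reached the filter only through the group in which it was high.

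The cells were checked against markers of mESCs and of other cell types that could make Fgf ligands. Of 12 pluripotency markers 11 were in the table, and their summed normalized value was 146614 and 152246 in wild-type and 146956 and 147926 in Bmal1-/- libraries, with 0 genes over 2-fold. At an adjusted p-value under 0.05, 5 of the 11 were higher and 5 lower (90.9%, beside 52.6% of all genes tested). Dppa5a makes the largest part of this sum. Without it the sums were 102136 and 102670 in wild-type and 103548 and 104849 in Bmal1-/- libraries, without overlap. Fibroblasts are a usual source of Fgf7. Their 12 markers summed to 212 and 201 in wild-type and to 330 and 311 in Bmal1-/- libraries, of which Fbn1 alone made 84.3 and 70.1 and 162 and 160.2, while Dcn, Lum and Prrx1 were at 0 and 7 of the 12 had at most 3 reads in any library. Of 5 fibroblast genes tested, 2 passed, both higher in the libraries labelled Bmal1-/- (Fbn1 with a log2 fold change of 1.056 and Thy1 with 0.59), and the part of such cells in the values of Fgf7 was not tested. Primitive endoderm markers, 12 of 12 found, summed to 12735 and 12851 in wild-type and to 13050.1 and 12688 in Bmal1-/- libraries, with 5 of 8 tested genes higher and 1 lower. Most of this sum is Sparc, and without it the sums were 854 and 842 in wild-type and 1376 and 1336 in Bmal1-/- libraries. Much of that difference lies in Col4a1, with 143 and 147 in wild-type and 410 and 382 in Bmal1-/- libraries, and in Col4a2, with 65.3 and 78.6 against 202 and 224. The basement membrane collagen genes Col4a1 and Col4a2 and the transcription factor gene Sox17 were higher by log2 fold changes of 1.44, 1.56 and 1.27. Gata4 (0.55) and Lama1 (0.31) were higher by less. Sox7 was lower (−2.41) and reached the filter only through the wild-type libraries. Sparc and Pdgfra (adjusted p = 0.73) did not pass. The genes under the filter went in both directions. Gata6 had 6 and 6 reads in wild-type and 0 and 3 in Bmal1-/- libraries, and Foxa2 had 6 and 4 against 3 and 4. Afp had 1 and 2 reads against 0 and 0, while Dab2 had 5 and 8 against 14 and 13. The part of primitive endoderm cells in the values of the Fgf genes was not tested. Formative and primed markers, 7 of 7 found with Pou3f1 at 0, summed to 3648 and 3377 and to 3374 and 3459, which overlapped, although 4 of 4 tested genes passed. Sox3 (log2 fold change 1.32) and Dnmt3a (0.59) were higher, and Lef1 (−1.21) and Dnmt3b (−0.26), which makes most of the sum, were lower. Trophoblast markers, 9 of 10 found, summed to 669 and 658 in wild-type and to 560 and 558 in Bmal1-/- libraries, and neural markers, 9 of 10 found with Dcx and Fabp7 at 0, to 4316 and 4029 and to 2643 and 2441. Tubb3, a neuronal tubulin gene, made most of the neural difference, with 2785 and 2512 in wild-type and 1192 and 1088 in Bmal1-/- libraries, and the sums without it were 1531 and 1517 and 1450.4 and 1353. Of 5 neural genes tested, Tubb3 and Pax6 were lower and 3 did not pass. Pax6 reached the filter only through the wild-type libraries.

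The marker list with the largest difference was that of the 2-cell-like state, a rare state of mESC cultures that expresses genes of the embryo after its first division. Of its 12 markers 6 were in the table. These were Gm5662 and the Zscan4 copies Zscan4b, Zscan4c, Zscan4d, Zscan4e and Zscan4f, so they are not 6 independent markers. The list was chosen with earlier results of these data known. Of these, 6 of 6 were higher in the libraries labelled Bmal1-/- by more than 2-fold, beside 5.75% of all genes tested. For the reasons given, nothing is read from this count. The 6 had a median log2 fold change of 3.60. Their sum was 291 and 381 in wild-type and 4054 and 4074 in Bmal1-/- libraries. Gm5662, with the highest mean value of them, had 162 and 208 in wild-type and 2049.8 and 2152 in Bmal1-/- libraries, and Zscan4c had 43.2 and 60.5 against 729.9 and 709. Zscan4b, with 9.48 and 9.56 in wild-type and 121 and 86.8 in Bmal1-/- libraries, reached the filter only through the latter. The Zscan4 genes are near-identical copies, so that the reads of single members are uncertain. Whether the cells with these transcripts were those with Fgf1 or Fgf7 was not tested, since bulk libraries hold no values of single cells.

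**Figure D4:**
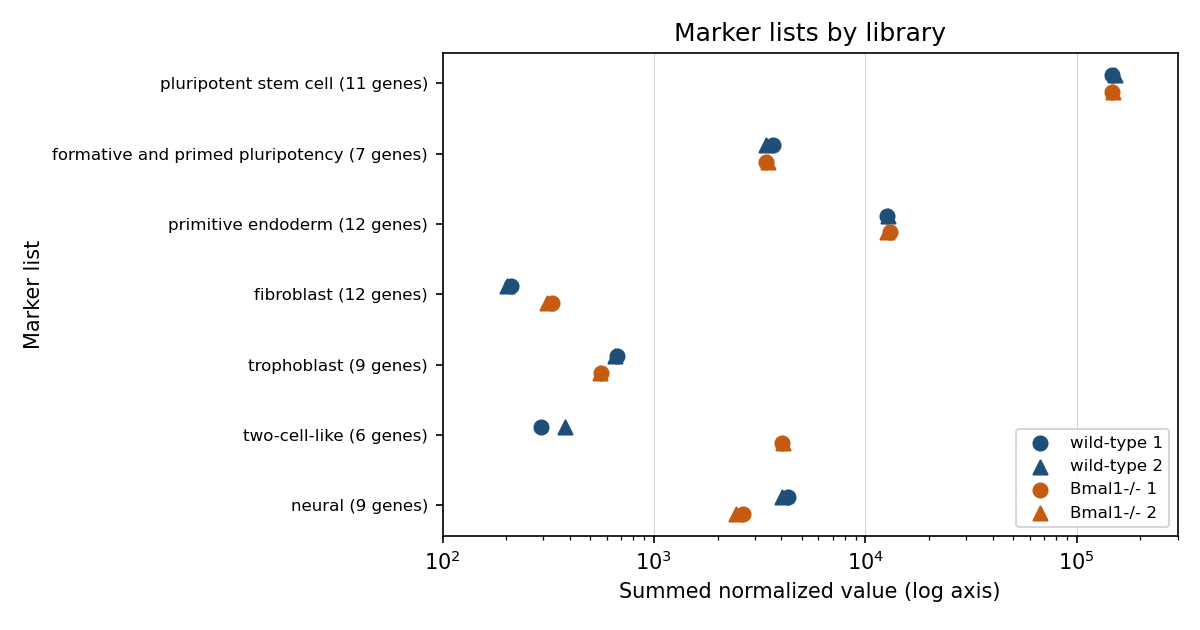
Summed normalized value of the markers of each cell type or state in the 4 libraries (log axis; 1 point per library, wild-type in blue and Bmal1-/- in orange). The pluripotency sums lie together at the high end of the axis, and those of the 2-cell-like list lie at 291 and 381 in wild-type and at 4054 and 4074 in Bmal1-/- libraries.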

How the data were processed

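mRNA-seq of 2 wild-type and 2 Bmal1-/- libraries of mESCs was used. Per the labels, libraries were stranded, and the tools named are bcl2fastq 2.18.0.12, cutadapt 1.9.1 and STAR 2.5.2b, with mm9 as the genome. The read counter and its strand setting are not given in the sources used here. The deposited table holds a normalized signal, made by the authors from read counts with TMM factors. Its values are whole multiples of what 1 read is worth in each library, and 100% came out as whole reads within 0.01 read. All tests are 2-sided tests of limma 3.58.1 on log2(value + 1), with an intensity trend, no covariate and a filter at an average of 10. The 10 members and the lists were chosen with earlier results of these data known.

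Genes named outside the members are Fgf2, Fgf3 and Fgf5, up to 3 higher and 3 lower genes of each pathway list by log2 fold change among those that passed, the nearest tested neighbours and the 3 most alike genes of Fgf1 and Fgf7, and leading or absent markers. Those beyond this rule (4930525F21Rik, Klb, Zscan4b, Zscan4c, Thy1, the single genes of the endoderm, primed and neural lists, Arhgap26, Ctbp2 and Gm17685) were chosen after their values were seen. Lengths and positions are those of GENCODE vM1 on NCBIM37, the assembly of mm9. Promoters are those of RefSeq on GRCm38.p6, and no coordinates were converted.

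Alternatives were other filters, pseudocounts, scalings and lengths, no trend, a replicate block, each library left out, and the count tests of edgeR 4.0.16 (quasi-likelihood) and DESeq2 1.42.0. The limma step was tested on simulated counts. Software was R 4.3.3 and Python 3.11.15 (matplotlib 3.10.9, numpy 2.4.6, scipy 1.17.1, pandas 2.3.3). The replicates are biological duplicates in the study's words, so p-values rest on the spread between 2 cultures of each line. For each gene, limma draws this spread towards that of other genes of like intensity, with a prior of 18.1 degrees of freedom. A p-value therefore does not measure the spread of its own gene alone. The raw reads and the other experiments of the study were not analysed here.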

Additional observations from a re-analysis of the deposited data

How the results depend on the processing

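The 8 tested members kept their direction under every alternative in which they could be fitted, those that leave out a library included. With a mean of at least 100, 5 of them (Fgf1, Fgf7, Fgfr2, Fgfr3 and Fgfr4) were not fitted. The members were chosen from this contrast, so that a call that stays is no support for a difference, and only lost calls are listed. The call at an adjusted p-value under 0.05 was lost by Fgf4 under 7 of 16 alternatives, Fgf10 under 6 of 16, Fgfr2 under 5 of 15, Fgfr4 under 4 of 15 and Fgfr1 under 1 of 16. Among these, leaving out the first Bmal1-/- library ended it for Fgf4, Fgf10 and Fgfr2, the second for Fgf10, Fgfr2 and Fgfr4, the first wild-type library for Fgfr2 and the second for Fgf4 and Fgf10. Their log2 fold changes ranged from 2.85 to 3.51 for Fgf1, from 3.31 to 4.51 for Fgf7, from −0.15 to −0.06 for Fgf4, from 0.20 to 0.38 for Fgf10, from −0.24 to −0.14 for Fgfr1, from −1.06 to −0.59 for Fgfr2, from 0.71 to 0.99 for Fgfr3 and from 0.41 to 0.79 for Fgfr4, with the lowest values of Fgf1 and Fgf7 at a pseudocount of 10. The 25 named pathway genes include Fgf21 and Hs6st3, which reached the filter only through their high group. For both, a call that stays is no support. Of the 25, 17, Fgf21 among them, stayed past an adjusted p-value of 0.05 under all alternatives and 0 reversed. The other 8 lost it under at least 1: Fgf17 under 8, Etv4 under 6 (largest adjusted p 0.25), Hs3st1 under 5, Spred1 under 4 (0.089), Spry4 under 3, Dusp4 under 2, and Hs6st3 and Frs2 (0.057) under 1 each.

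The 1046 genes called over 2-fold became 318 with a mean of at least 100, which leaves fewer genes to test, and 7639 with no fold threshold, and ran from 956 to 1115 with 1 library left out. EdgeR called 1091 and DESeq2 862. With a mean of at least 100, Fgf1 and Fgf7 are under the filter, so that 0 members remained over 2-fold, and the lower pathway genes went from 10 to 5. With the 2-fold threshold, 4 pathway genes were higher and 3 lower. With the longest transcript as the length, Fgf4 made up 97.3% of the ligand sum in wild-type and 91.6% in Bmal1-/- libraries, and Fgfr1 94.6% and 91.3% of the receptor sum. The difference between replicates of one label had a correlation of −0.02 with that of the other over 14510 genes. This shows no strong effect shared by replicates of the same number. It cannot settle whether they were paired, since counting error is part of these differences. With the replicate number as a block, 1056 genes were called, 23 pathway genes were higher and 10 lower, and 2 members were over 2-fold.

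Depth limits Fgf8 and Fgf15, with at most 11 reads in a library, and the wild-type values of Fgf1 and Fgf7, with at most 15. Isoforms, proteins and single cells were not measured here, and each label is 1 line.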
